A study of Homo sapiens with 6 samples.

Results

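The H/ACA small nucleolar RNAs (SNORA genes) and the small Cajal body RNAs (SCARNA genes) were examined on Clariom D arrays of MCF10.AT1 cells and of their fluvastatin-resistant derivative, MCF10.AT1-R. A gene was taken as a member when its symbol in the deposited table was SNORA with a number and at most 1 letter, or SCARNA with a number. This gave 116 of the 81496 symbols in the table, 95 SNORA and 21 SCARNA, which together carry 394 of the 135750 transcript probe sets. Each member is given by the probe set with the highest mean over the 5 arrays compared, so its level was used to choose the probe set. The family was proposed with results of these arrays already known.

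MCF10.AT1 is a preneoplastic human breast epithelial line that belongs to the MCF10A series, and it was grown without selection. MCF10.AT1-R is a single line, selected from MCF10.AT1 in fluvastatin at doses that rose from 1 to 20 µM. Whether the drug was present at harvest is not stated in the sources used here. Total RNA was hybridised on 3 arrays per line, which the labels call biological replicates. Arrays A01, A02 and A03 hold MCF10.AT1 and arrays B02, B03 and B04 hold the resistant line, so the letter in the array name and the line cannot be told apart. A03 was removed as an outlier in the study and is given separately. The comparison therefore had 2 arrays against 3, and this number limits the precision of every value.

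H/ACA RNAs fold into hairpins that pair with a target RNA and direct the conversion of a chosen uridine to pseudouridine, by a particle of dyskerin (DKC1), NOP10, NHP2 and GAR1. SNORA RNAs act mainly on ribosomal RNA in the nucleolus, whereas scaRNAs act mainly on spliceosomal RNAs in Cajal bodies, and some scaRNAs are box C/D RNAs that direct ribose methylation instead. Most are cut out of introns of a host gene, so that a snoRNA and its host messenger RNA come from the same primary transcript.

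Among the 116 members, SCARNA7 stood apart by size, with an RMA log2 value that was 3.71 higher in MCF10.AT1-R. SNORA80E was lower by a log2 difference of -1.09. SNORA40 was lower by a fitted -1.09, with B03 and B04 under the level of the negative controls, so the size of that difference rests on background. The members with the highest probe set values, SNORA24 and SNORA44, differed between the lines by -0.13 and 0.15. In limma over all 51457 probe sets tested, 1 member passed an FDR of 5% as higher and 2 passed as lower. The same test called 0.758% of all tested probe sets as higher and 0.447% as lower, 1.2% in all, and 70 of the 116 members had entered it. The other 46 had been removed, 30 of them by the filter on low expression and 16 by the filter on invariant probe sets alone. The median difference of all 116 members was -0.06, beside 0.01 for all transcript probe sets.

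**Figure D1:**
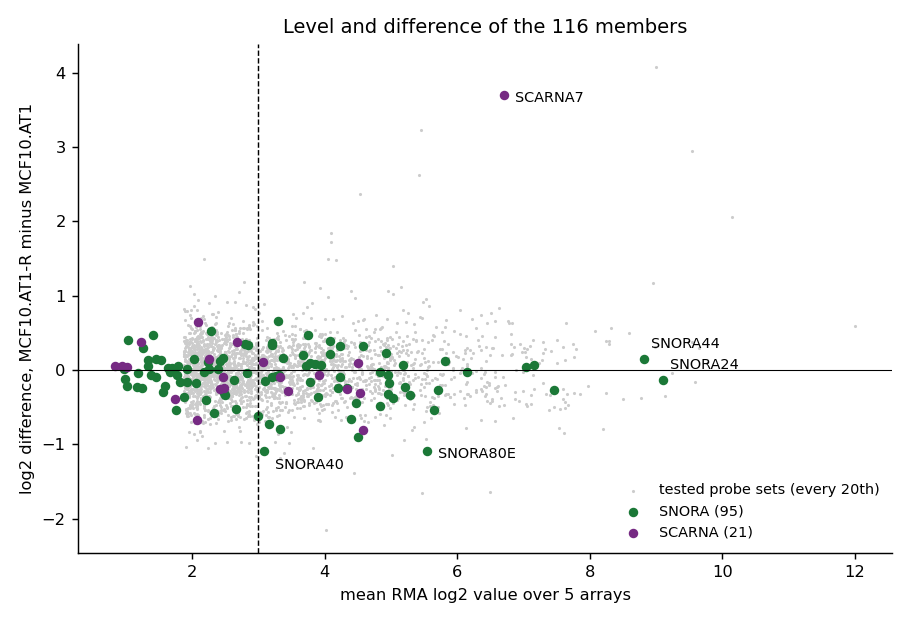
Mean RMA log2 value over 5 arrays (x axis) and log2 difference of MCF10.AT1-R minus MCF10.AT1 (y axis) for the 95 SNORA and 21 SCARNA members, over every 20th of the 51457 tested probe sets in grey. The dashed line is the 95th percentile of the negative controls, at 2.99. SCARNA7 lies alone at a difference of 3.71, and the other members lie between -1.09 and 0.66.

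Levels of the members ranged from 0.84 to 9.11 on the RMA log2 scale, with a median of 3.03. The 95th percentile of the 612 negative control probe sets, averaged over the 5 arrays, was 2.99, so about the middle of the family sat at the edge of background. On all 5 arrays 47 members lay above that value and 51 lay below it on all 5. Levels of different probe sets are not comparable as amounts of RNA. The largest values were SNORA24 at 9.11, SNORA44 at 8.81, SNORA71C at 7.47, SNORA71D at 7.16 and SNORA17A at 7.03, followed by SCARNA7 at 6.70, SNORA55 at 6.15 and SNORA50C at 5.82. Apart from SCARNA7, these RNAs guide pseudouridylation of ribosomal RNA.

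The members with the 5 largest values lie within noncoding host genes of the SNHG series in the RefSeq annotation. SNORA24 lies in SNHG8, SNORA44 in SNHG12, SNORA71C and SNORA71D in SNHG17, and SNORA17A in SNHG7. SNHG genes are known for transcripts that start with a run of pyrimidines, the 5′ TOP type that many ribosomal protein genes share. The start regions of these 4 host genes are shown because they hold the members with the 5 largest values, and the sequences of the snoRNAs themselves were not in the references used here. Each run has 10 bases before the RefSeq start and 20 bases from it on, from RefSeq on GRCh38.p14. Capitals mark the unbroken run of C and T that holds the start base on the strand of the gene.
SNHG8 (chr4:118278752-118278781, plus strand): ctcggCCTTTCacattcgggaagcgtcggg
SNHG12 (chr1:28581854-28581883, minus strand): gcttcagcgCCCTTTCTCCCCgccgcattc
SNHG17 (chr20:38435309-38435338, minus strand): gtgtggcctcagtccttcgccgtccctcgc
SNHG7 (chr9:136728165-136728194, minus strand): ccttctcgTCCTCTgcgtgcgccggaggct
The run was 6 bases long in SNHG8, 12 in SNHG12 and 6 in SNHG7. It began before the annotated start, at positions -5, -1 and -2 relative to it. In SNHG8 the run ended at the start base, so the annotated transcript itself does not begin with a run of pyrimidines. At SNHG17 the annotated start base was no pyrimidine, so no run is marked there. Host genes were also counted for members whose probe set is placed on the chromosome of the RefSeq gene. Of these 61 host genes, 48 had a promoter sequence, and 1 promoter was taken per gene. A run of at least 6 bases that holds the start base was found in 12 of the 48, which is 25%. It was found in 7.41% of all 35116 promoters, which were counted without grouping by gene. Bases before the start were counted in these runs. These matches are descriptions of the letters around the annotated start and do not identify 5′ TOP transcripts. Symbols of SNHG8, SNHG12, SNHG17 and SNHG7 were not matched to a probe set, so the level of these snoRNAs could not be set beside that of their host RNA.

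Of these members, SNORA24 read 9.21 and 9.16 in MCF10.AT1 and 9.12, 8.96 and 9.09 in MCF10.AT1-R. Its resistant arrays were all lower, by a narrow margin. SNORA44 read 8.78 and 8.67 against 8.95, 8.88 and 8.79, with the resistant arrays just above the others. SNORA71C read 7.61 and 7.65 against 7.42, 7.36 and 7.29, a difference of -0.27. None of these entered the test, since their SD fell under the invariance limit, and without a filter their adjusted p in limma were 0.932, 0.92 and 0.839. SNORA17A read 7.03 and 6.99 against 7.06, 6.82 and 7.27, and its arrays overlapped. SNORA71D, SNORA55 and SNORA50C overlapped as well, with differences of 0.07, -0.03 and 0.12.

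SCARNA7, also known as U90, is a box C/D scaRNA that directs ribose methylation of the spliceosomal U1 RNA, so the member with the largest difference carries no H/ACA function despite the name of the family. It read 4.98 on A01 and 3.98 on A02, and 8.34, 7.83 and 8.38 on B02, B03 and B04. Every resistant array was far above both MCF10.AT1 arrays, and all 5 were above the negative controls. The means were 4.48 ± 0.71 (SD, n = 2) and 8.18 ± 0.31 (SD, n = 3), a 13.1-fold difference. Its log2 difference of 3.71 (standard error 0.31) had an adjusted p of 6.86e-29 in limma with Benjamini-Hochberg adjustment. That p rests on an SD of 0.34 that limma shared across all probe sets after the filters. With each probe set keeping more of its own variance the adjusted p in limma was 0.0087 under the low-expression filter alone and 0.0048 without a filter. With values under the negative controls raised to their level it was 0.143, although the difference of SCARNA7 itself was unchanged at 3.71. In total RNA, a change in the amount per cell and a change in the share of cells that hold the RNA cannot be told apart.

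SCARNA7 has 1 probe set, whose identifier places it on chromosome 3, as RefSeq does. The RefSeq gene, 330 bases long, lies inside KPNA4, which encodes an importin alpha. KPNA4 read 6.60 and 6.94 in MCF10.AT1 and 6.91, 6.69 and 6.95 in MCF10.AT1-R. Its arrays overlapped, with a difference of 0.08 (adjusted p = 0.967 in limma without a filter). The coding genes next to KPNA4 were also compared. TRIM59 differed by -0.61, B3GALNT1 by -0.39, SMC4 by -0.32, IFT80 by -0.01, PPM1L by 0.10 and ARL14 by 0.32. None of these passed, and PPM1L had not entered the test. IFT80, ARL14, PPM1L and B3GALNT1 were not above the negative controls on all 5 arrays, so their differences rest partly on background. KPNA4, SMC4 and TRIM59 were above the controls on all 5, at differences of 0.08, -0.32 and -0.61. Whether the locus as a whole differed was not tested.

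SNORA80E, also named ACA42, guides pseudouridylation of the 18S ribosomal RNA. It read 6.21 and 6.18 in MCF10.AT1 and 5.33, 5.10 and 4.87 in MCF10.AT1-R. All resistant arrays were lower, and all 5 were above the negative controls. It fell by 1.09 on the log2 scale (standard error 0.31, adjusted p = 0.041 in limma), which is 2.13-fold. The call was lost in limma without A01 (adjusted p = 0.418), without A02 (0.424), without B03 (0.0664), without B04 (0.205), and without the invariance filter (0.139). Its host gene KHDC4, an RNA-binding protein gene listed under the older symbol KIAA0907, read 5.70 and 5.60 against 5.35, 5.52 and 5.70. The host arrays overlapped, with a difference of -0.12. SNORA42 is an older name of the same RNA that has probe sets of its own in the table. Its one on chromosome 1, where RefSeq places the gene, had a mean of 2.81 and a difference of -0.33.

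**Figure D2:**
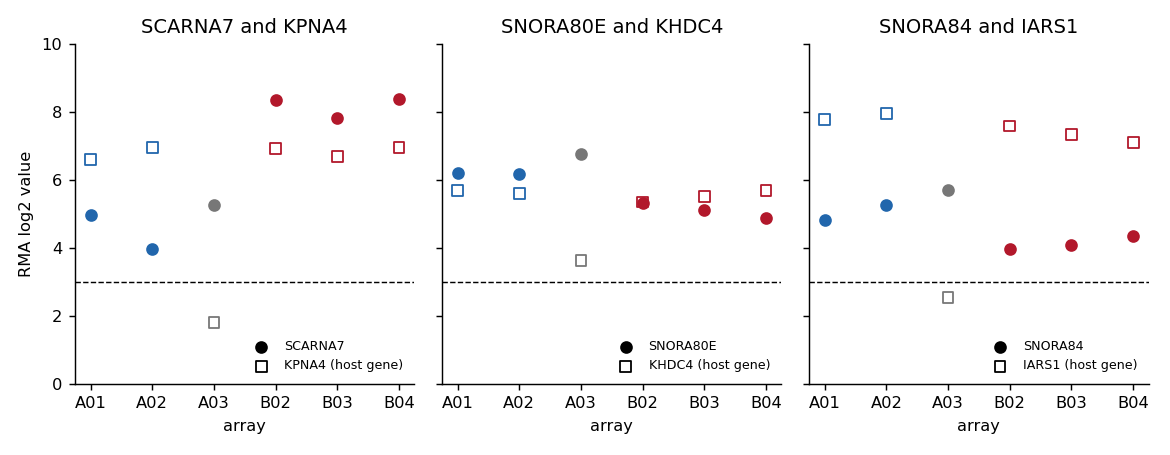
RMA log2 values (y axis) of SCARNA7, SNORA80E and SNORA84 (filled circles) and of their host genes (open squares) on each of the 6 arrays (x axis), blue for MCF10.AT1, red for MCF10.AT1-R and grey for A03; the dashed line is the 95th percentile of the negative controls. SCARNA7 rises from 4.48 to 8.18 while KPNA4 stays between 6.60 and 6.95 on the 5 arrays compared.

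SNORA40 read 3.53 and 3.95 in MCF10.AT1 and 3.15, 2.20 and 2.60 in MCF10.AT1-R. The resistant arrays were all lower, and B03 and B04 were under the negative controls. It fell by 1.09 on the log2 scale (standard error 0.31, adjusted p = 0.043 in limma). The symbol has 21 probe sets, and the identifier of this one gives chromosome 1, whereas the RefSeq gene lies in TAF1D on chromosome 11. The next brightest probe sets of the symbol behaved alike, with identifiers on chromosomes 2 and 6. The one on chromosome 2 differed by -1.01 (adjusted p = 0.0795 in limma) and the one on chromosome 6 by -1.16 (adjusted p = 0.0213). Such copies can share probe sequence, so they are not independent measurements, and which locus gave the signal was not tested. Over all 21 probe sets the median difference was -0.08, with 8 above 0 and 13 below. The call of SNORA40 was lost in limma when any of A01, A02, B03 and B04 was left out, with adjusted p of 0.154, 0.786, 0.266 and 0.129. With the mean over its probe sets the difference was -0.19.

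The members that followed in size did not pass. SNORA84 read 4.82 and 5.27 against 3.97, 4.09 and 4.36, a difference of -0.91 (adjusted p = 0.17 in limma) with no overlap between the lines. Its host gene, listed as IARS and now IARS1, encodes isoleucyl-tRNA synthetase. The host read 7.78 and 7.96 against 7.59, 7.34 and 7.11, which was also lower on every resistant array, by -0.53 (adjusted p = 0.706). SCARNA5, or U87, is a mixed scaRNA with both box C/D and H/ACA elements. It read 5.37 and 4.76 against 4.36, 4.06 and 4.34, a difference of -0.81 (adjusted p = 0.295), and its host gene ATG16L1 differed by -0.12.

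Of the other large negative differences, SNORA64 (U64, a guide for 28S ribosomal RNA) read 5.97 and 5.96 against 5.56, 5.10 and 5.63. Its difference was -0.53, and the identifier of its probe set is on another chromosome than the RefSeq gene in RPS2. SNORA76 read 4.46 and 5.12 against 4.01, 4.29 and 4.06, a difference of -0.67. SNORA76 is an older name of SNORA50C, and the latter, on the RefSeq chromosome, differed by 0.12. SNORA26 differed by -0.79, SNORA46 by -0.73, SCARNA9 by -0.67, SNORA11 by -0.61, SNORA5A by -0.58 and SNORA11B by -0.52. None of these 6 was above the negative controls on all 5 arrays, and the arrays of SNORA5A overlapped. The probe set of SNORA11 lies on another chromosome than its RefSeq gene. A dimmer probe set of SNORA11 on the RefSeq chromosome differed by 0.53, in the opposite direction.

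On the side of higher values, the member after SCARNA7 was SNORA65 (U65, a guide for 28S ribosomal RNA, in RPL12). It read 2.77 and 3.03 against 3.81, 3.60 and 3.27, a difference of 0.66 (adjusted p = 0.526 in limma) without overlap, and with A01 under the negative controls. RPL12 differed by 0.03. SCARNA18 and SNORA59B differed by 0.64 and 0.52, but all 5 arrays of both were under the negative controls. The remaining 8 of the 12 largest positive differences among tested members, SNORA68, SNORA2C, SCARNA6, SNORA5C, SNORA30, SNORA78, SNORA74B and SNORA79, lay between 0.33 and 0.47. Of these 8, the arrays did not overlap for SNORA30 and SNORA74B. SCARNA6, SNORA5C, SNORA30 and SNORA78 were not above the negative controls on all 5 arrays. The probe sets of SCARNA6, SNORA30, SCARNA18 and SNORA59B lie on another chromosome than their RefSeq genes.

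**Figure D3:**
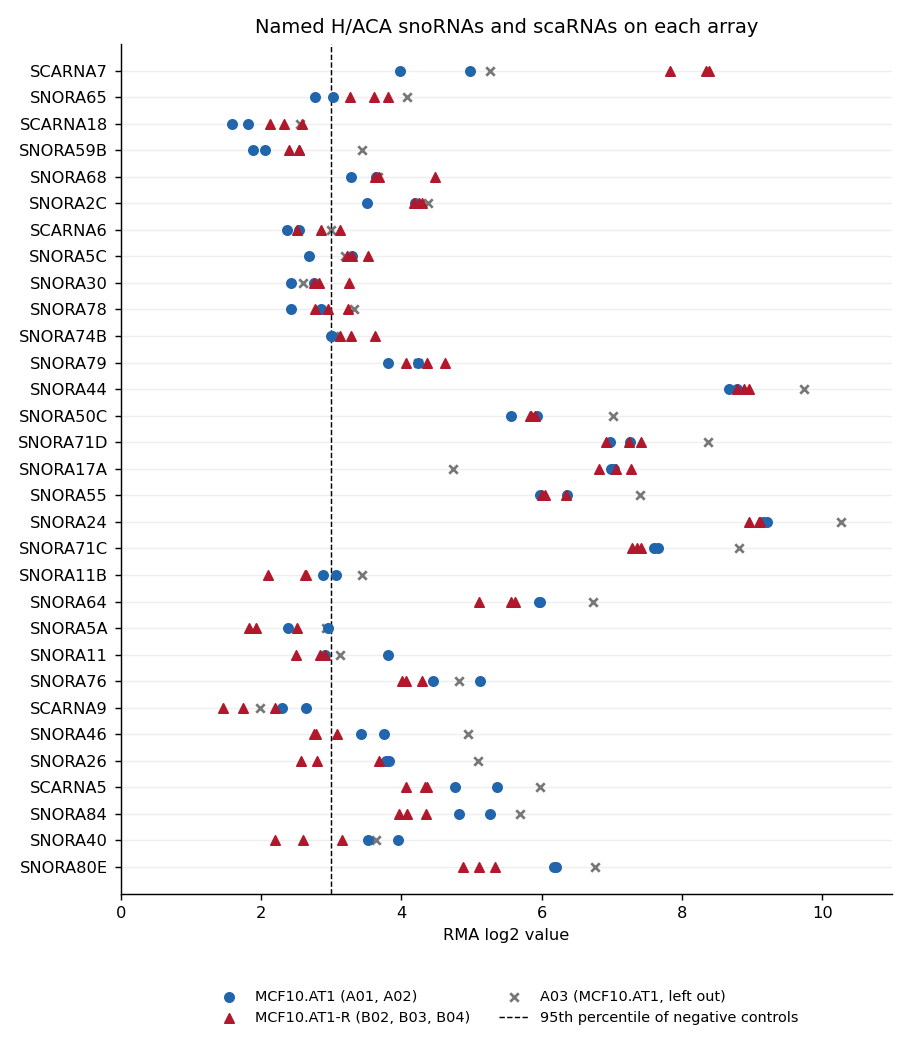
RMA log2 values (x axis) of the members named by size of difference or by level (y axis, ordered by the difference of MCF10.AT1-R minus MCF10.AT1), with 1 point per array. SCARNA7 at the top has all 3 MCF10.AT1-R arrays (triangles) far to the right of the MCF10.AT1 arrays (circles), SNORA80E at the bottom has them to the left, and for most members in between the 2 groups lie close together.

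Across the whole family, values were higher on every MCF10.AT1-R array than on A01 and A02 for 12 members (10.3%) and lower on every one for 23 (19.8%). Among all transcript probe sets these shares were 12.2% and 11.1%. Restricted to the 47 members above the negative controls on all 5 arrays, 5 were higher (10.6%) and 11 lower (23.4%), beside 16.2% and 15.2% of all probe sets at such levels. At an unadjusted p under 0.05 in limma without a filter there were 13 members, 4 higher and 9 lower, and 6.7% of all transcript probe sets passed that limit. The same counts were made for other small RNAs. Of 46 box C/D snoRNAs (SNORD symbols) above the negative controls, 1 was higher and 23 lower without overlap, with a median difference of -0.29. Of 144 other small noncoding RNAs above the controls, such as spliceosomal and 7SL RNAs and their copies, 3 were higher and 38 lower, with a median of -0.17, while the 47 members had a median of -0.07. Some of these other small noncoding RNAs carry identical values, such as RNU1-3 and RNU1-28P, and were counted separately, so the entries are not independent. The part that recovery of short RNA plays in these differences was not tested.

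The SCARNA members were described by count. Among all 21, 3 were higher and 3 lower without overlap, 10 had a positive difference and 11 a negative one, and 6 were above the negative controls on all 5 arrays. These 6 were SCARNA7, SCARNA5, SCARNA17 (4.54), SCARNA2 (4.50), SCARNA15 (4.34) and SCARNA20 (3.92). Apart from the first pair they differed by -0.30, 0.10, -0.26 and -0.06, each with overlapping arrays. The probe set of SCARNA20 has an identifier on chromosome 15, whereas its RefSeq gene is on chromosome 17. A dimmer probe set on chromosome 17, with a mean of 2.43, differed by -0.63 (adjusted p = 0.57 in limma). SCARNA10 (U85), the mixed guide of the U5 RNA, was at 0.84 and within the negative controls, so no level can be given for it.

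Members with near-identical copies were compared side by side. SNORA71A, SNORA71B, SNORA71C and SNORA71D all lie in SNHG17 and guide the 18S RNA, and their differences were -0.33, -0.22, -0.27 and 0.07, none of them called, and SNORA71C had not entered the test. Differences between the copies were not tested. SNORA71E in SNHG11 differed by -0.49, with arrays between 3.86 and 5.41 that overlapped. SNORA70 has 29 probe sets with means between 0.88 and 5.02 and differences between -0.52 and 0.48, none of them called. SNORA31 has 25 probe sets, with differences between -0.53 and 0.46 and none called. Of the 116 members, 55 have a single probe set and 61 have several.

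The identifier of a probe set carries a chromosome, and this matched RefSeq for 99.8% of 19038 protein-coding probe sets. For the members with a RefSeq record it matched in 68 and differed in 38. Of these 38, 14 also have a dimmer probe set on the RefSeq chromosome, none of which was above the negative controls on all 5 arrays. For some members named by size of difference, the dimmer probe set had the opposite sign. It differed by 0.53 for SNORA11, -0.32 for SCARNA18, -0.39 for SNORA30 and -0.09 for SCARNA6. For SNORA59B, also named by size, it differed by 0.18, with the same sign. The 106 members with a record name 103 RefSeq genes, because SNORA76, SNORA42 and SNORA17 are older names of other members. The 68 members with the same chromosome had a median difference of -0.09 and the 38 with another one -0.01. SCARNA7 and SNORA80E are among the 68 and SNORA40 is among the 38.

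Some members lie inside a measured gene in RefSeq and have their probe set on the RefSeq chromosome. For these, the difference of the member was set beside that of the gene, without regard to strand. This gave 54 pairs, of which 32 had the same sign and 22 opposite signs. Over the pairs Pearson's r was 0.15 and Spearman's rho 0.25, as a description across genes that share the arrays. For the 18 pairs with the member above the negative controls r was 0.17 and rho 0.25, and without SCARNA7 they were 0.26 and 0.21. Of all 75 measured genes around members, 31 entered the test. The 1 that passed in limma was NCAPD2, a condensin subunit that holds SCARNA10. NCAPD2 read 6.90 and 6.82 against 5.74, 5.28 and 5.73, a difference of -1.28 (adjusted p = 0.00626), lower on every resistant array. The call of NCAPD2 was lost in limma without B03 (adjusted p = 0.0505) and without a filter (0.123). It was also lost without A01 and without A02, fits that leave 1 MCF10.AT1 array.

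**Figure D4:**
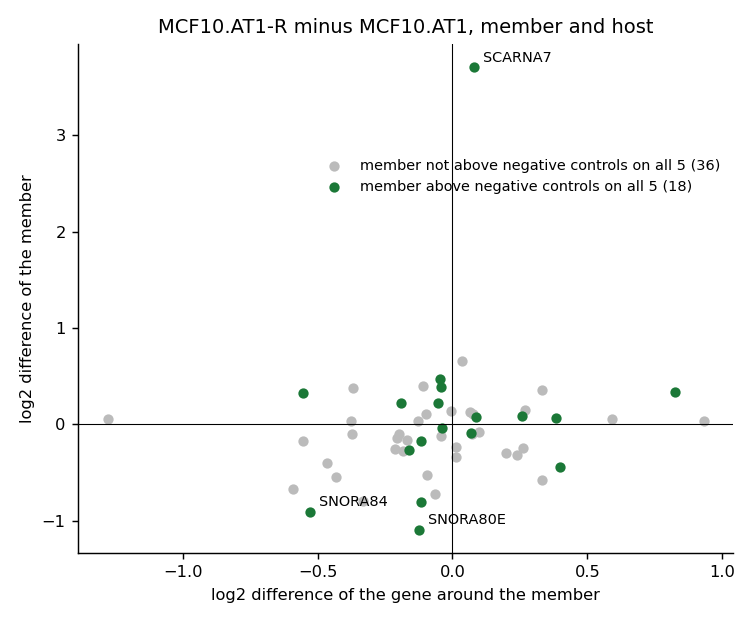
Log2 difference of MCF10.AT1-R minus MCF10.AT1 for the gene around a member (x axis) and for the member (y axis). Shown are the 54 pairs in which the probe set of the member is on its RefSeq chromosome. Green marks the 18 members above the negative controls on all 5 arrays. SCARNA7 has a difference of 3.71 over a host difference of 0.08, and SNORA80E has -1.09 over -0.12.

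For the proteins that work with these RNAs no call was made, but not all of them entered the test. The core proteins are dyskerin (DKC1, the pseudouridine synthase), GAR1, NOP10 and NHP2, and they differed by -0.14, 0.25, 0.16 and -0.08. Of these 4, only GAR1 passed the filters and was tested. DKC1 read 8.21 and 8.17 against 8.16, 7.87 and 8.11, so that its resistant arrays lay just below the others. Of the 10 assembly and Cajal body genes 6 were tested and 0 passed, with differences from -0.38 for WRAP53, which carries scaRNAs to Cajal bodies, to 0.43 for SHQ1, a dyskerin chaperone. At an unadjusted p under 0.05 in limma without a filter the counts among the 4 core and 10 assembly genes were also 0. Of the 12 stand-alone pseudouridine synthases, which need no guide RNA, 11 were tested and 0 passed, 0 reached an unadjusted p under 0.05 in limma without a filter, and the median difference was 0.21. The arrays of 4 of these 12 (33.3%) were higher without overlap and those of 0 were lower, beside 12.2% and 11.1% of all transcript probe sets. Of these 12, 10 were above the negative controls on all 5 arrays, and the shares for all probe sets at such levels were 16.2% and 15.2%. The telomerase RNA TERC, which has an H/ACA domain, read 4.92 and 5.10 against 4.71, 4.83 and 4.97. Its arrays overlapped at a difference of -0.17.

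Among 7 genes of RNA polymerase I and the nucleolus, MYC, a transcription factor that drives ribosome production, read 7.83 and 7.74 against 8.50, 8.63 and 8.72. It was higher on every resistant array by 0.83, and its adjusted p in limma was 0.268. The other 6 differed by -0.16 to 0.20. Of the markers listed for mammary basal epithelium, 8 of 8 were above the negative controls on all 5 arrays. Of these 8, 6 passed as higher in MCF10.AT1-R, with a median difference of 1.65 and KRT17 at 4.08. Of 12 markers of other cell types 7 were above the controls, so this limit does not tell the cell types apart. These 7 were CD3E and CD14 of leukocytes, PECAM1 and VWF of endothelium, COL1A1 and COL3A1 of fibroblasts, and KRT1 of cornifying keratinocytes, with COL1A1 the highest at means of 7.03 and 7.18 for the parental and the resistant line. PTPRC, PDGFRA, LOR, FLG and KRT10 were not above the controls on all 5 arrays. Past FDR 5% in limma were CD14 and PECAM1, with differences of -1.12 each, and KRT1, with 1.10. The part of these markers in the differences of the members was not tested.

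On A03 most members read above the other arrays, whereas most of the measured genes around them read below. The correlation of A03 with the other arrays was 0.779 to 0.795 over all transcript probe sets, and that among the other 5 was 0.967 to 0.977. A03 was above each of the other 5 arrays for 71 of the 116 members (61.2%) and below each for 6. Among all transcript probe sets it was above in 44.0%. For the 47 members above the negative controls it was above in 35 (74.5%), with a median of 0.77 over the mean of the other arrays, beside 50.7% and 0.31 for all transcript probe sets at such levels. SNORA24 read 10.27, SNORA44 9.74, SNORA71C 8.82 and SNORA80E 6.76 on A03, each above its 5 other arrays. Of the 75 measured genes around members, A03 was below each of the other arrays in 64 (85.3%) and above in 5, with a median of -4.22. It was below each of them for 15.6% of all transcript probe sets and for 35.8% of those above the negative controls. KPNA4 read 1.80 and DKC1 4.08 there.

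Against the mean of the other 5 arrays, SNORA17A and SCARNA7 were the members with the largest departures downwards on A03. SNORA17A read 4.74 there, under its range of 6.82 to 7.27 on the other arrays. SCARNA7 read 5.26, above A01 and A02 and under all 3 MCF10.AT1-R arrays. Its departure downwards thus comes from the MCF10.AT1-R arrays in that mean, and not from the other arrays of its own line. Counting A03 as MCF10.AT1 thus left the order of the lines for SCARNA7, with a difference of 3.45 (adjusted p = 0.0484 in limma over 6 arrays).

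**Figure D5:**
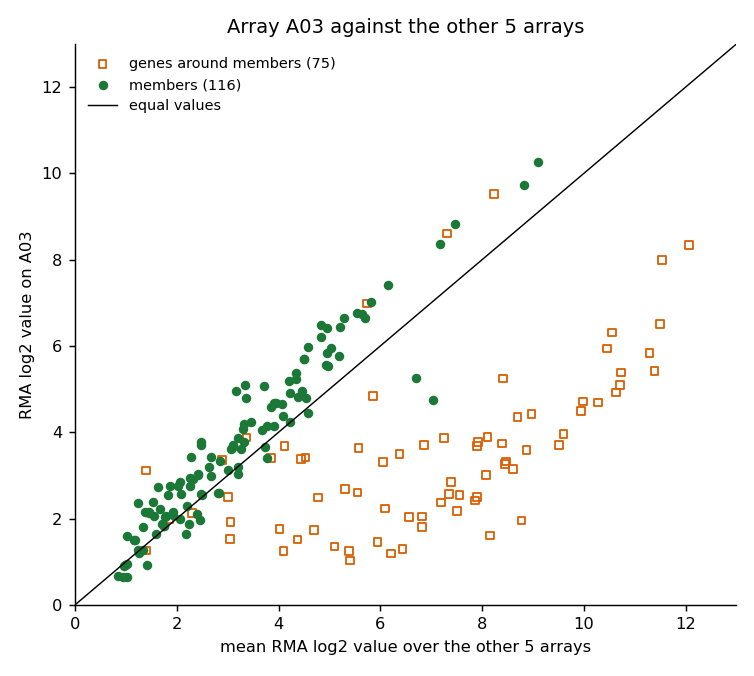
RMA log2 value on A03 (y axis) against the mean of the other 5 arrays (x axis) for the 116 members (green) and the 75 measured genes around them (orange squares), with the line of equal values. Most members lie above the line, with SNORA17A and SCARNA7 farthest below it among the members, whereas most host genes lie far below it. The mean of SCARNA7 includes the 3 higher MCF10.AT1-R arrays, and its A03 value is above A01 and A02.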

How the data were processed

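Total RNA of MCF10.AT1 and MCF10.AT1-R was measured on Clariom D arrays, 3 per line. The authors deposited log2 values per probe set, made by RMA with affy and oligo over all 6 arrays. Quantile normalization therefore included A03, and a shift common to all RNAs cannot be seen. The column names give a letter and a number. The letter A was read as MCF10.AT1 because the study removed A03 and then showed 2 MCF10.AT1 arrays. The members and lists were chosen with earlier results of these data known.

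From 138745 rows, 2995 control probe sets were left out. A probe set entered the test if its mean over 5 arrays exceeded the median (1.88) and its SD exceeded the lowest 25% (0.18). The limma package 3.58.1 (lmFit, eBayes; R 4.3.3) was used, and p-values were adjusted by Benjamini-Hochberg over 51457 probe sets at FDR 5%. Other members come from the fit without a filter. The scripts were tested on simulated data. Named were the members past FDR 5%, the 12 largest rises and 12 largest falls among tested members, the 8 highest levels, and fixed lists of hosts, H/ACA proteins and cell type markers. Arrays, filters, variance models, normalization, probe set choice and thresholds were varied. RefSeq records were matched by symbol for 100 members, by older name for 6, and not for 10. The build used for the deposited table is not given in the sources used here.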

Additional observations from a re-analysis of the deposited data

Results flagged for a closer look

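The array A03 enters none of the comparisons of the lines. On it, 71 of the 116 members read higher than on each of the other 5 arrays, against 44.0% of all transcript probe sets. Among other small noncoding RNAs above the negative controls, A03 was higher than each of the other arrays for 131 of 144, and among SNORD symbols above the controls for 40 of 46. Some of the other small noncoding RNAs carry identical values and were counted separately. The cause of the higher values on A03 was not tested.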

How the results depend on the processing

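No paired analysis was possible because the columns carry no replicate number that ties them to the labels. The 1 higher call, SCARNA7, was kept under 16 of 17 alternatives for it, with differences of 3.21 to 4.21. It was lost, leaving 0 higher calls, with values raised to the negative controls. The 2 lower calls, with 9 members lower at an unadjusted p under 0.05 in limma without a filter, were less stable. There were 0 lower calls with A03 added back, with the low-expression filter alone, without a filter, with values raised to the negative controls and at FDR 1%. There was 1 with the mean over the probe sets of a symbol, with the second highest probe set and, as alternatives chosen after seeing the data, with the probe set on the RefSeq chromosome and with the low-expression filter and trend option together. Leaving out 1 array gave 0 lower calls for A01, A02, B03 and B04 and 2 for B02. Without A01 or A02 the lone MCF10.AT1 array was assumed to vary like the resistant arrays.

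The median difference of the members was -0.25 with A03 added back and lay between -0.09 and 0 under the other alternatives. Members higher without overlap numbered 6 with A03, 7 with the mean over probe sets and 6 with values raised to the negative controls, where 14 were lower. With 1 array left out they numbered 15 to 29 higher and 25 to 45 lower, since fewer arrays have to be in order. NCAPD2 reversed to 0.27 with A03 added back, where A03 read 2.23. The cause of the other changes was not tested. Of 584 values for single genes, 512 kept direction and call or moved by less than the replicate SD. Most genes were judged on their log2 difference alone. Settings that change only the filters or the variance model leave that difference as it was. Many of the 512 were therefore fixed in advance, and their number does not measure stability. Of 91 counts and medians, 67 stayed within the limit set for them and 24 moved beyond it. Members at or under the negative controls have no reliable difference.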
